A study of Schizosaccharomyces pombe with 4 samples.

Results

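The genes described here encode the main histone chaperones of fission yeast other than Sim3: *hip1* (SPBC31F10.13c), *hip3* (SPBC31F10.14c) and *slm9* (SPBC15D4.03) of the HIRA complex, *cia1* (Asf1, SPCC663.05c), *pcf1* (SPBC29A10.03c), *pcf2* (SPAC26H5.03) and *pcf3* (SPAC25H1.06) of CAF-1, *spt16* (SPBP8B7.19) and *pob3* (SPBC609.05) of FACT, and *spt6* (SPAC1F7.01c). The rule that chose them uses symbols and systematic IDs. Of the 10 genes, 8 were found on the array by those names, and *pcf1* and *spt6* were found under older IDs (SPBC365.19c and SPAC694.07c) that the RefSeq gene table lists as their synonyms. They stand among 4857 genes with a named probe, and all 10 were among the 4820 genes that could be tested.

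Histone chaperones are proteins that bind histones outside the nucleosome and hand them to DNA or take them from it. CAF-1 deposits H3 and H4 behind the replication fork, HIRA deposits them independently of replication, and Asf1 carries H3-H4 dimers to both. FACT and Spt6 act mainly during transcription, where they loosen nucleosomes ahead of RNA polymerase and restore them behind it. The strains are mutated in Sim3, a chaperone of the NASP family through which the H3 variant of centromeres, CENP-A (Cnp1), is loaded.

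RNA of *Schizosaccharomyces pombe* strains with the missense allele *sim3-143* or *sim3-205*, taken in log phase, was hybridised against wild-type RNA on 2-colour arrays of spotted open reading frames. There were 2 arrays per allele. Replicate 2 of *sim3-205* was deposited under a different array platform from all the other arrays. The 2 arrays of *sim3-205* therefore differ in platform as well as in dye, and the part of the platform in their spread was not tested. The mutant was labelled with Cy3 on replicate 1 and with Cy5 on replicate 2, and each probe was printed as 2 spots, which gives 4 data points per gene and allele. The growth temperature of these cultures and whether the 2 arrays of an allele came from separate cultures are not given in the sources used here, so the spread between arrays may be technical. All ratios are log2 of mutant over wild-type, and a ratio on an array is the mean of its 2 spots. Because both alleles change single residues, the transcript level of *sim3* does not check the labels. Its ratios were 0.25 and -0.04 in *sim3-143* and 0.00 and -0.27 in *sim3-205*.

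Over all genes, the arrays of *sim3-143* correlated with each other at r = 0.476 and those of *sim3-205* at r = 0.143 (across genes, which are not independent replicates). On *sim3-205* replicate 1, the Cy3 and Cy5 intensities were unrelated in 3 of the 32 print grids, with Spearman's rho of 0.241, 0.156 and -0.19, against 0.794 or higher in its other grids and 0.842 or higher in every grid of the other 3 arrays. The probe of *cia1* lies in the grid with rho of -0.19. The other 9 chaperone genes lie outside these grids.

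None of the 10 chaperone genes changed past 1.5-fold in either mutant by the rule that at least 3 of the 4 data points lie past that fold in 1 direction. Of the 4825 genes with 4 values in *sim3-143*, the same rule took 2.09% upward and 1.39% downward, and of the 4842 in *sim3-205* it took 2.56% upward and 0.599% downward, so that a set of 10 genes with no member past it is near the background. The *sim3-205* share includes the grids with unrelated dyes. With both directions together and at least 3 values, it was 3.15% of 4850 genes, and 2.31% of 4414 without those grids. The median ratio of the 10 genes was 0.08 in *sim3-143*, where 7 means were above 0, and -0.06 in *sim3-205*, where 4 were, against medians of -0.01 and 0.01 over all genes tested. In limma's test with Benjamini-Hochberg adjustment no chaperone gene was called in either mutant, nor was any of the 4820 genes (0% in each mutant). This fit shares the spread of a gene between the alleles. With each allele fitted alone, 43 of 4827 genes were called in *sim3-143* and 0 of 4850 in *sim3-205*, none of them a chaperone gene. In the shared fit, at an unadjusted p under 0.05, 0 of the 10 genes passed in *sim3-143* and 2 in *sim3-205* (*cia1* and *spt16*), beside 419 (8.69%) and 424 (8.8%) of all genes. With 2 arrays per allele an exact test of 1 gene cannot reach 0.05, and over all 4 arrays the smallest two-sided p of an exact sign test is 0.125.

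**Figure D1:**
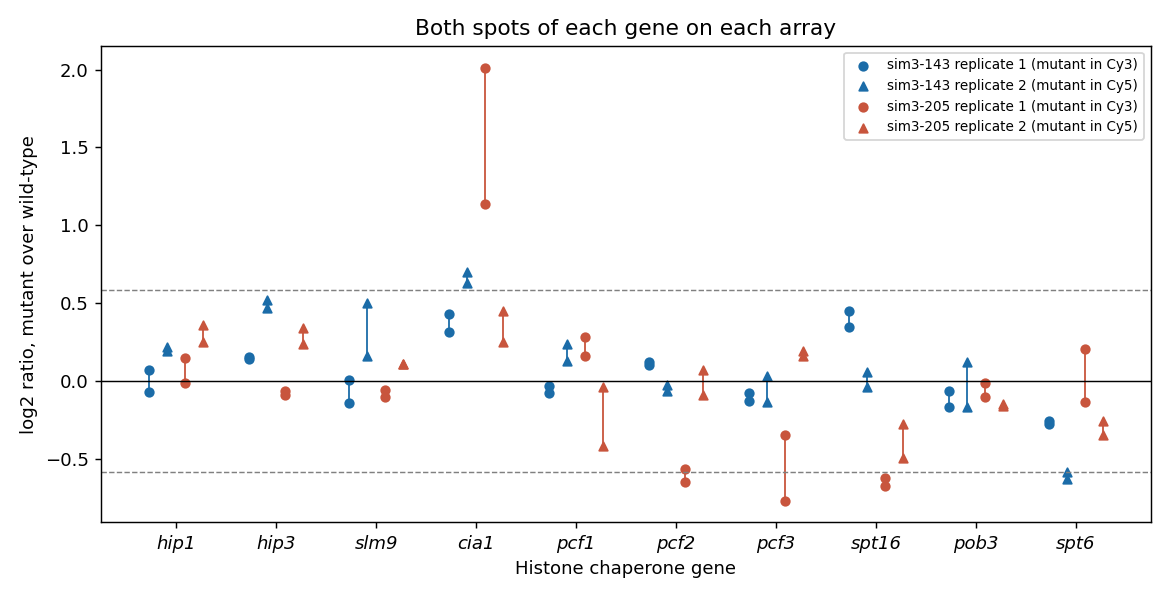
Log2 ratio of mutant over wild-type (vertical axis) of both spots of each chaperone gene (horizontal axis) on each of the 4 arrays, with a line joining the spots of 1 array and dashed lines at 1.5-fold. No gene has 3 of 4 points of an allele past a dashed line, and the highest points, 1.13 and 2.01, are *cia1* on *sim3-205* replicate 1, in a grid where the dyes were unrelated.

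No HIRA gene among the members had a data point past 1.5-fold in either mutant. The share of all genes with no such point was not counted. *hip1*, which encodes the HIRA protein itself together with its paralogue *slm9*, had ratios of 0.00 and 0.21 in *sim3-143* and 0.06 and 0.30 in *sim3-205*. It was the gene of the complex whose array ratios were all at or above 0, as were those of 11.6% of all genes. *hip3*, the HIRA subunit related to human CABIN1, had ratios of 0.15 and 0.49 in *sim3-143* and -0.08 and 0.29 in *sim3-205*. *slm9* had ratios of -0.07 and 0.33 in *sim3-143* and -0.08 and 0.11 in *sim3-205*. The means of the 3 genes ran from 0.10 to 0.32 in *sim3-143* and from 0.01 to 0.18 in *sim3-205*, and none passed the test (lowest adjusted p from limma 0.599, for *hip3* in *sim3-143*). The 95% interval of *hip3* in *sim3-143* ran from 0.90- to 1.72-fold. In *sim3-205* the mean changed sign under 4 of 11 alternative settings for *hip3* and under 5 of 10 for *slm9*. Among the settings that kept both arrays and named spots by position, it changed sign in 1 of 7 for *hip3* and in 4 of 7 for *slm9*.

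In both mutants all 3 HIRA genes among the members had the higher ratio on the array with the mutant in Cy5. A further HIRA gene outside the members, *hip4*, did not follow this order in *sim3-143*. Its ratios there were 0.35 with the mutant in Cy3 and 0.22 in Cy5, and in *sim3-205* they were -0.04 and -0.0003. A higher ratio with the mutant in Cy5 in both alleles was found for 28.9% of all genes and for *pcf3* among the other members. Within an allele, the part of the dye in these ratios cannot be told apart from that of the array. A dye term common to both alleles was fitted as an alternative, and with it limma called 0 of 4820 genes in each mutant. *hip1* and *hip3* are neighbours on chromosome II with no protein-coding gene between them. Their ratios differed by 0.29 at most on any array, and their probes lie in different print grids.

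*cia1* was the one member above wild-type at all 8 data points, a pattern seen in 7.11% of the 4810 genes with 8 values. Asf1, its product, is essential in fission yeast. In *sim3-143* its spots gave 0.43 and 0.31 on replicate 1 and 0.63 and 0.70 on replicate 2, so that replicate 2 alone was past 1.5-fold. The mean was 0.52 ± 0.21 (SD, n = 2 arrays), or 1.43-fold, with a 95% interval of 0.82- to 2.49-fold (limma, adjusted p = 0.60). The fit shares the spread of a gene between the alleles, so this interval also holds the spread of *cia1* in *sim3-205*. With *sim3-143* fitted alone, the adjusted p from limma was 0.23, and 43 of 4827 genes were called. In *sim3-205* the spots gave 1.13 and 2.01 on replicate 1 and 0.25 and 0.45 on replicate 2. The mean of 0.96 ± 0.87 (SD, n = 2) did not pass the test (limma, adjusted p = 0.544).

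The *sim3-205* mean of *cia1* rests on replicate 1, the array with unrelated dyes in its grid. There the mutant intensities in Cy3 were 3078 and 3332 and the wild-type intensities in Cy5 were 237 and 206, and the weaker of these was 1.06 times its local background. On the other 3 arrays both dyes were at least 12.6 times the background. In that grid 123 of 152 genes (80.9%) were past 1.5-fold on that array, with a median ratio of 0.94, against 12.2% of the 4413 genes in its unaffected grids. Without this array the ratio of *cia1* in *sim3-205* was 0.35, or 1.27-fold. The mean of both arrays depended on the processing. It was 0.01 with loess fitted within each grid, 1.38 with the deposited ratios moved back to their spots, 1.75 with no background correction and 3.28 with plain background subtraction.

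**Figure D2:**
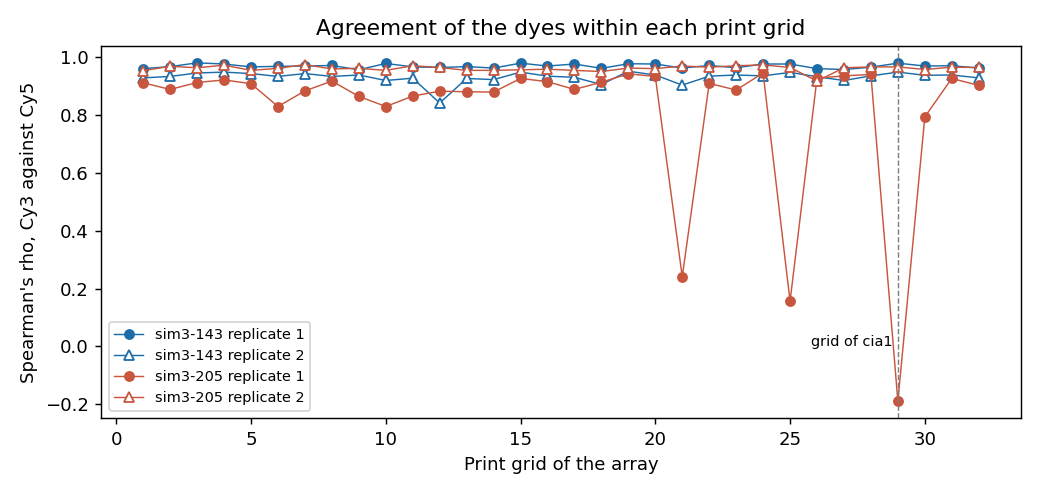
Spearman's rho between Cy3 and Cy5 intensities (vertical axis) in each of the 32 print grids (horizontal axis) of each array. The 3 low points, at 0.241, 0.156 and -0.19, belong to *sim3-205* replicate 1, and the dashed line marks the grid that holds *cia1*.

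The genes whose ratios lay nearest to those of *cia1* over the 4 arrays (by Euclidean distance) were *vps3* (distance 0.24), SPAC57A7.02c (0.29) and *hba1* (0.31). All 3 are printed in 2 of the 3 grids with unrelated dyes, and their ratios on *sim3-205* replicate 1 were 1.54, 1.57 and 1.34.

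None of the CAF-1 genes passed the test in either mutant (lowest adjusted p from limma 0.669, for *pcf2* in *sim3-205*). *pcf1*, which encodes the large subunit, had ratios of -0.06 and 0.18 in *sim3-143* and 0.22 and -0.23 in *sim3-205*, with opposite signs on the 2 arrays of each mutant. *pcf2*, the middle subunit, had ratios of 0.11 and -0.05 in *sim3-143*. In *sim3-205* it was at -0.61 on replicate 1 and at -0.01 on replicate 2. *pcf3*, the small subunit and a WD-repeat protein, had ratios of -0.10 and -0.05 in *sim3-143* and of -0.56 and 0.17 in *sim3-205*. Thus *pcf2* and *pcf3* were low on a single array, and their means of -0.31 ± 0.42 and -0.19 ± 0.52 (SD, n = 2) in *sim3-205* were within the spread between its arrays. On *sim3-205* replicate 2 the *pcf2* spots were the dimmest of any member outside the *cia1* grid, at 3.49 times the background.

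Neither FACT gene passed the test in either mutant. *spt16*, the large subunit, was below wild-type at all 4 data points in *sim3-205*, at -0.62 and -0.67 on replicate 1 and -0.50 and -0.28 on replicate 2. The 2 arrays of *sim3-205* gave the same sign, in either direction, for 54.1% of all genes. That is a looser condition than all 4 data points below 0, for which no share was counted. The mean of *spt16* there was -0.52 ± 0.18 (SD, n = 2), or 0.70 times wild-type, with a 95% interval of 0.51 to 0.96 before adjustment (limma, unadjusted p = 0.0325, adjusted p = 0.545). In *sim3-143* its spots were at 0.35 and 0.45 on replicate 1 and at -0.04 and 0.05 on replicate 2, with a mean of 0.20 ± 0.28. The array ratios of the 2 alleles therefore did not overlap, as was the case for 1 of the 10 members, *spt16* itself, and for 39.3% of all genes. The difference, *sim3-205* minus *sim3-143*, was -0.72, with a 95% interval of -1.36 to -0.08, and was not called (limma, unadjusted p = 0.0344, adjusted p = 0.706), beside 244 of 4820 genes (5.06%) with an unadjusted p under 0.05 for the same difference and 0% called. *pob3*, the other subunit, had ratios between -0.16 and -0.02 on the 4 arrays, below wild-type on all 4 as were 10.5% of all genes. Its mean in *sim3-205*, -0.11, was -0.49 with median centring, -0.24 with plain background subtraction and -0.28 with the deposited ratios moved back. The genes nearest to *spt16* were *tif213* (distance 0.19), which encodes the gamma subunit of translation initiation factor eIF2, *rhp18* (0.24) and *lnp1* (0.27).

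*spt6*, whose product binds H3-H4 and travels with RNA polymerase II, was below wild-type at all 4 data points in *sim3-143*, at -0.28 and -0.26 on replicate 1 and -0.59 and -0.63 on replicate 2. The 2 arrays of *sim3-143* gave the same sign, in either direction, for 65.6% of all genes. That is a looser condition than all 4 data points below 0, for which no share was counted. The mean of *spt6* there was -0.44 ± 0.24 (SD, n = 2), or 0.74 times wild-type, with a 95% interval of 0.54 to 1.01 (limma, adjusted p = 0.58). In *sim3-205* the array ratios were 0.04 and -0.30, so that the alleles overlapped, and the difference between them of 0.31 was not called (limma, adjusted p = 0.773).

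**Figure D3:**
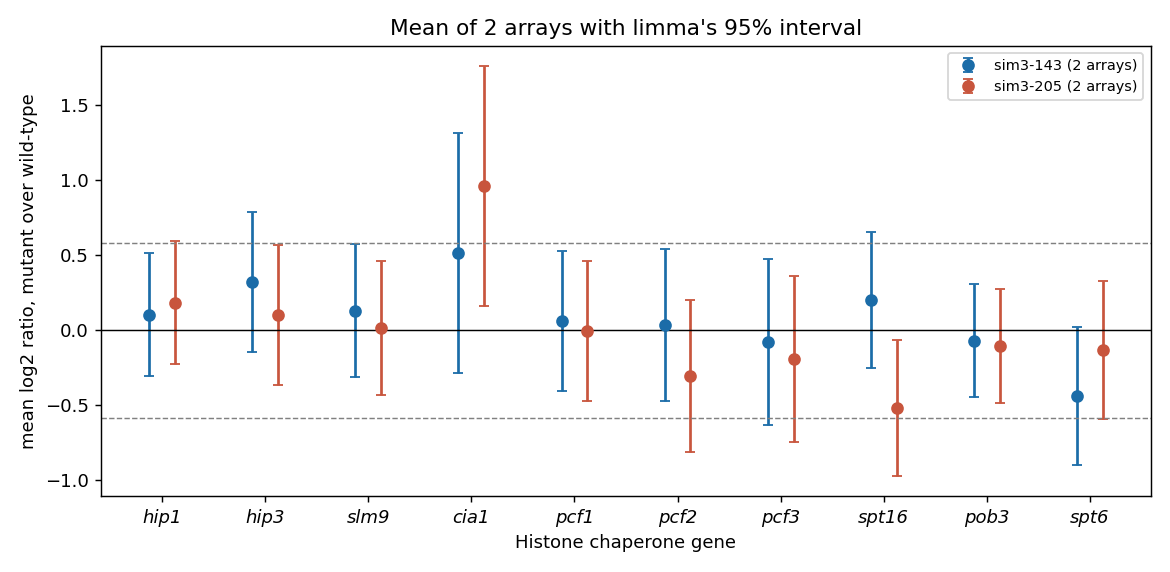
Mean log2 ratio of mutant over wild-type over 2 arrays (vertical axis) for each chaperone gene (horizontal axis), with bars for the 95% interval of the limma fit before adjustment and dashed lines at 1.5-fold. Intervals leave out 0 for *cia1* and *spt16* in *sim3-205* and for no gene in *sim3-143*.

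The precision of these arrays sets what can be said of the members that stayed near wild-type. The median half-width of the 95% interval was 0.46 on the log2 scale in each mutant. For 9 of the 10 genes in *sim3-143* and 9 in *sim3-205* the interval lay within 2-fold of wild-type in both directions, *cia1* being the exception in each. The fit shares the spread of a gene between the alleles, so the *cia1* interval in *sim3-143* also holds its spread in *sim3-205*. The interval lay within 1.5-fold for 5 genes in *sim3-143* and for 4 in *sim3-205*. The 2 spots of a member on an array differed by a median of 0.07 to 0.11, while its 2 arrays differed by a median of 0.27 in *sim3-143* and 0.35 in *sim3-205*, close to the 0.26 and 0.30 of all genes. The 2 arrays of a mutant gave the same sign for 7 of 10 members in *sim3-143* and for 5 of 10 in *sim3-205*, beside 65.6% and 54.1% of all genes.

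The level of each member in each channel (log2 intensity after scaling the arrays to a common distribution) shows which channel varied, and is compared within a gene only. For *cia1* the mutant channels were at 12.08 and 11.87 in *sim3-143* and 11.66 and 11.33 in *sim3-205*. Its wild-type channels were at 11.71 and 11.21 beside *sim3-143*. Beside *sim3-205* they had a mean of 10.54 ± 0.63 (SD, n = 2), with replicate 2 at 10.98, and the wild-type channel of *sim3-205* replicate 1 was the lowest of the 8 values. For *spt16* the mutant channels were at 13.13 and 12.00 in *sim3-143* and 12.21 and 11.94 in *sim3-205*. The wild-type channels beside them were at 12.73 and 11.99 and at 12.86 and 12.33. The mutant channels of the alleles overlapped, and so did the wild-type channels beside them. For *pcf2* both channels of *sim3-205* replicate 2 were low, at 9.31 and 9.32.

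**Figure D4:**
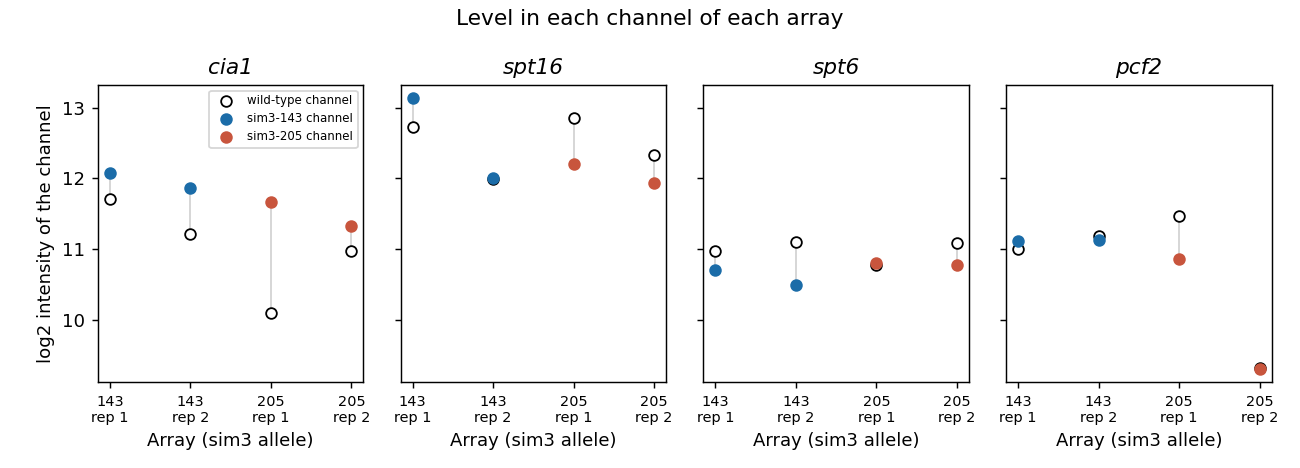
Log2 intensity (vertical axis) of the wild-type channel (open circles) and the mutant channel (filled circles) on each array (horizontal axis) for *cia1*, *spt16*, *spt6* and *pcf2*. The wild-type channel of *cia1* is lowest on *sim3-205* replicate 1, 1.57 below the mutant channel, and both channels of *pcf2* are near 9.31 on *sim3-205* replicate 2.

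A further 22 genes of histone supply, exchange and remodelling were set beside these (other chaperones such as *nap1*, *nap2*, *scm3* and *chz1*, histone acetyltransferases, elongation factors and remodellers). In *sim3-143*, 1 of the 22 was past 1.5-fold upward and 0 downward, beside 2.09% and 1.39% of all genes. It was *hrp1*, a CHD1-type remodeller, at 0.68 ± 0.02 (SD, n = 2) with all 4 data points past 1.5-fold (limma, adjusted p = 0.538). The highest mean in *sim3-143* was that of *chz1*, a chaperone of H2A.Z in budding yeast, at 0.76 ± 0.58, and the lowest that of *nap1*, an H2A-H2B chaperone, at -0.78 ± 0.68. In *sim3-205*, 0 of the 22 were past 1.5-fold, beside 2.56% of all genes upward and 0.599% downward. Its highest mean was that of *nap2*, at 0.39 ± 0.18, and its lowest that of *hrp3*, at -0.27 ± 0.08. None of the 22 was called by limma in either mutant, where 2 in *sim3-143* and 0 in *sim3-205* had an unadjusted p under 0.05, beside 0% of all genes called and 8.69% and 8.8% with such a p. The probes of *nap1* and *spt5* lie in grids with unrelated dyes on *sim3-205* replicate 1. The medians of the 22 were 0.04 and -0.02.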

How the data were processed

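Per the deposited scanner output, each spot has a median intensity and a local background for Cy3 and for Cy5, with no normalization by the authors. The authors also deposited log2 ratios, normalized by Lowess in GeneSpring. The deposited log2 ratios were used as an alternative. The names in the scanner files of *sim3-143* replicate 2 and *sim3-205* replicate 1 did not follow the printed spots: spots named empty there had median summed intensities of 4634 and 3117, against 354 and 264 at the empty positions of the layout of *sim3-143* replicate 1. Genes were therefore named by grid position from that layout. With the written names, or the deposited ratios as placed, those arrays, 1 of each allele, carried ratios of other spots. As placed, their deposited ratios correlated with the scanner ratios at r of -0.009 to 0.047, against 0.564 to 0.981 when moved back. A count of 0 members under the written names or the values as placed is therefore no check of the result.

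Intensities were background-corrected with normexp (offset 50) and loess-normalized (span 0.3) within each file with limma 3.58.1 (R 4.3.3), then turned to mutant over wild-type. Controls and spots marked as failed were left out. Spot pairs were averaged per array, and lmFit and eBayes were run over 4 arrays with a coefficient per allele. p-values were adjusted (Benjamini-Hochberg) over 4820 genes, with 0.05 as the threshold. Counts past 1.5-fold needed 3 of 4 data points. Channel levels used loess and Aquantile scaling. The scripts were tested on simulated data. Precision is limited by the number of arrays.

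The members and lists were chosen with earlier results of these data known. The genes named are the 10 members, *sim3*, the listed pathway genes past 1.5-fold or with the highest or lowest mean in an allele, and the 3 genes nearest to the 2 members with the largest root mean square ratio. In addition, *hip4* was named after its values were seen. Alternatives changed background correction, normalization, spot filters, spot names, the fold rule, the model and the arrays used.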

Additional observations from a re-analysis of the deposited data

Results flagged for a closer look

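*spt16* had ratios above wild-type on both arrays of *sim3-143* and below it on both arrays of *sim3-205*, with the spots of *sim3-143* replicate 2 at -0.04 and 0.05. No change was called in either allele, and array ratios that do not overlap between the alleles were found for 39.3% of all genes. The difference, *sim3-205* minus *sim3-143*, was -0.72, and limma's test of it gave an adjusted p of 0.706. No group held enough arrays for a test of single outlying arrays.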

How the results depend on the processing

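No member was past 1.5-fold or called by limma under any other background correction, normalization, spot filter, 2-fold rule, dye term or single-allele fit. Counts of 0 with the names as written or the deposited values as placed (7 tested) are uninformative, as 1 array per allele was misnamed. Only 4 of 10 could be tested with the deposited values moved back. Without dim spots or the grids of unrelated dyes 9 could (all but *cia1*). In *sim3-143*, limma called 43 of 4827 genes with the allele fitted alone and 3 of 4820 with print-tip loess. It called 9 of 4421 there without dim spots and 9 of 4384 without those grids. With the mean of the data points as the rule, 1 member (*cia1*) was past 1.5-fold in *sim3-205*, beside 9.57% of all genes, and 3 pathway genes were in *sim3-143*, beside 8.29%. Leaving out 1 array gave 0 to 2 members past 1.5-fold in *sim3-143* (*cia1* and *spt6* without replicate 1, beside 16.5% of all genes) and 0 to 2 in *sim3-205* (*cia1* and *spt16* without replicate 2, beside 12.8% of all genes), where both remaining points had to pass. It gave 0 to 1 members called by limma in *sim3-205*: *cia1* was called without replicate 2 (adjusted p = 0.00719), together with 338 of 4824 genes, that is from the array with unrelated dyes in its grid alone, with the lone array assumed to vary like the other allele's. Pathway counts ran from 1 to 5 in *sim3-143* and from 0 to 1 in *sim3-205*. The median of the members ran from -0.028 to 0.094 over the arrays of *sim3-143* and from -0.069 to 0.049 over those of *sim3-205*. It was 0.22 in *sim3-143* with the names as written and 0.20 with the deposited values as placed. In *sim3-143* the pathway count was 0 with print-tip loess, the 2-fold cutoff, the names as written, and the deposited values as placed or moved back. In *sim3-205* it was 2 with print-tip loess, beside 2.04% of all genes (*nap1* and *spt5*, both in grids with unrelated dyes, *spt5* being named after its values were seen). Using only the 8 members that carry the names of the rule, an alternative chosen after seeing the data, left the counts at 0. Of 220 ratios of single members under the alternatives, 24 changed sign. With both arrays kept and spots named by position, 12 of 146 did. Mutant and wild-type were already paired within each array ratio. No further pairing of arrays was possible because the labels give no replicate numbers, and those used here only name the arrays.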
